A study of Mus musculus with 9 samples.

Results

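The genes described are 46 mouse genes for histone methyltransferases and histone demethylases. They were taken by symbol from the 52264 rows of a table of read counts per gene. All 46 were found, and all 46 passed the filter on low counts that left 15366 genes for testing. The list was drawn up by what the encoded proteins do, but with earlier results of these data known. It does not hold every such enzyme, and a separate list has 24 other writers and erasers, of which 22 passed the filter. It holds 33 genes for methyltransferases and other SET domain proteins, 4 of them for arginine methyltransferases, and 13 demethylase genes.

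The counts came from RNA sequencing of mouse embryonic stem cells (ESCs) whose genotype is given as beta-catenin-/-, in 9 libraries. All cells were grown on feeder-treated dishes, with CHIR-99021, PD03 and LIF named for their expansion, and were moved to N2B27, a defined medium without serum, overnight. They then stood for 30 min without inhibitor (the untreated control), with BRD0705, or with CHIR, at doses that are not given. Each group had 3 libraries, and nothing states that these came from separate cultures, so each p-value measures only the spread between libraries. BRD0705 is known as an inhibitor selective for glycogen synthase kinase 3α (GSK3α), while CHIR-99021 inhibits both GSK3α and GSK3β. Every group, the control included, carried the same genotype, so treated and untreated cells differed in the inhibitor alone as far as the labels say. No parental line with β-catenin was analysed here.

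Histone methyltransferases move methyl groups from S-adenosylmethionine to lysine or arginine residues of histone tails, and demethylases take them off. Methylation of H3K4 and H3K36 marks promoters, enhancers and transcribed gene bodies, whereas methylation of H3K9 and H3K27 is found at silent chromatin. In ESCs, the H3K9 enzyme Setdb1 and the arginine methyltransferase Prmt5 are known for keeping the pluripotent gene programme in place.

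Libraries held 17359422 to 20773337 counts, of which the 46 genes took 0.619% to 0.655%. Ctnnb1, the gene of the genotype label, had 5657 to 7457 counts in every library, so the counts do not show the loss that the label states. Counts per gene cannot tell which exons are missing. Summed levels in CPM, library-size-scaled counts, of 10 pluripotency markers ran from 4644 to 4976, whereas 6 primitive endoderm markers together reached at most 20.5 CPM, with Foxa2 at 0 to 1 counts. The 10 fibroblast markers summed to 2442 to 2944 CPM in the control, 3128 to 3186 with BRD0705 and 2767 to 3328 with CHIR. Fibroblast marker RNA was thus present in all libraries and lower in the control libraries than in 5 of the 6 treated ones. Whether it came from feeder cells was not tested. In bulk RNA, fewer cells of a type and less RNA per cell cannot be told apart. Libraries also differed in how counts moved with GC content across genes. Spearman correlations of a library's deviation with GC ran from -0.28 to 0.19 in the control, from 0.069 to 0.27 with BRD0705 and from -0.12 to -0.062 with CHIR.

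Most of these enzymes were well expressed. The median member stood at the 75.8th percentile of the mean level of tested genes, and 36 of 46 lay above the median gene. Levels are compared here as CPM per kb of exon, as means over the 9 libraries. Among the H3K4 methyltransferases, Setd1a was highest at 26.4 (range 23.4 to 30.0) and Setd7, an enzyme that adds a single methyl group, was lowest at 1.25 (0.944 to 1.44). Kmt2b, Setd1b, Kmt2a, Kmt2d and Kmt2c lay between them. Setd2, the main enzyme for trimethylation of H3K36, led its group at 21.3, above Nsd1, Ash1l and Nsd3, with Nsd2 lowest at 1.66. Of the H3K9 enzymes, Ehmt2 (G9a) reached 44.3, and Prdm2, Setdb1 and Ehmt1 followed. The pair that trimethylates H3K9 in heterochromatin was low, with Suv39h1 at 2.65 and Suv39h2 at 2.50.

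Ezh2 led the group that methylates H3K27, H3K79 and H4K20 at 24.9 CPM per kb, above Kmt5c, Dot1l, Kmt5a and Ezh1, and Kmt5b was lowest at 2.05. Among the other SET domain proteins, Smyd5 was highest at 18.5 and Smyd3 lowest at 1.55, with Setd5, Kmt2e and Smyd2 between. Per kb of exon, arginine methyltransferases held the 3 highest levels of all 46 genes. Carm1 (range 59.2 to 68.8) had a mean of 63.0, Prmt5 (47.4 to 58.1) of 51.9 and Prmt1 (42.7 to 52.3) of 47.3. The ranges of Prmt5 and Prmt1 overlap, and that of Carm1 lies above both. Prmt7 followed at 8.15. Demethylases ran from Kdm5b at 38.5 and Kdm1a (LSD1) at 38.2, both erasers of H3K4 methylation, down to Kdm7a at 0.906. Between them came, in falling order, Kdm2b, Kdm6b, Kdm3a, Kdm4a, Kdm3b, Kdm2a, Kdm4c, Kdm4b, Kdm5a and Kdm1b. All these rankings depend on the exon lengths used. In CPM not divided by length, Kdm5b (mean 639) and Kdm2b (334) lay above Carm1 (314).

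**Figure D1:**
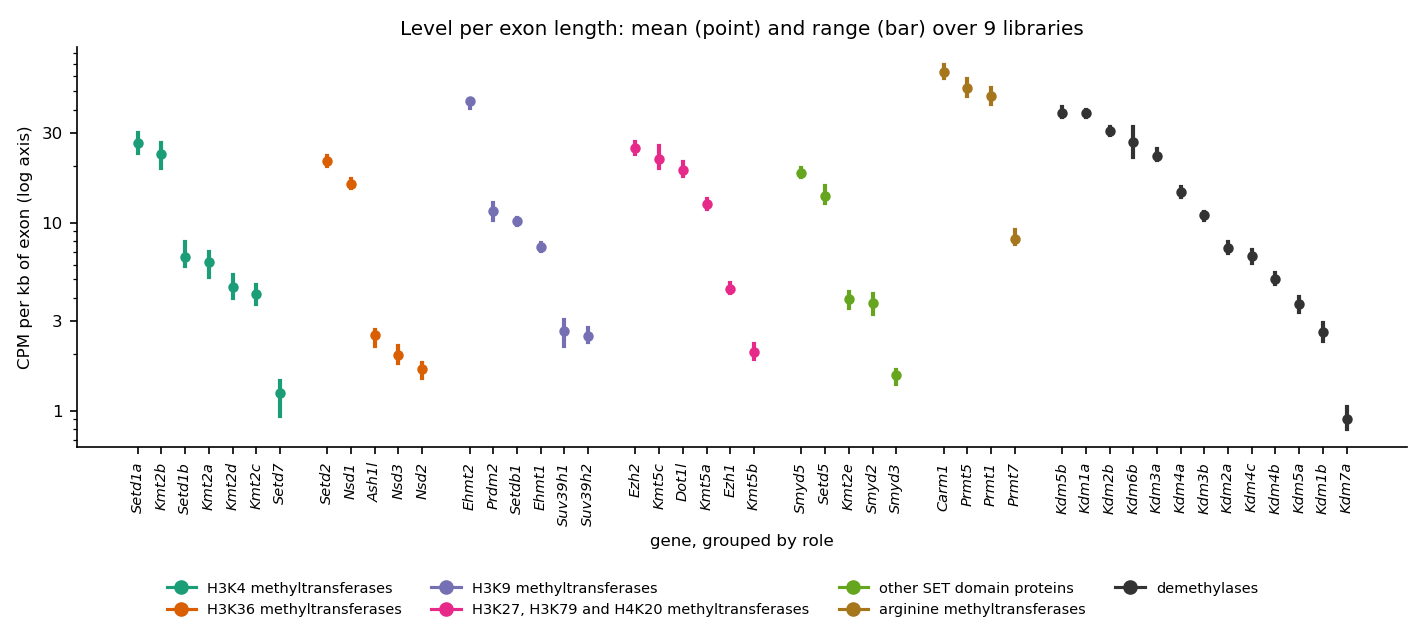
Mean level of each of the 46 genes in CPM per kb of exon on a log axis, grouped by role, with bars for the range over 9 libraries. Carm1, Prmt5 and Prmt1 stand highest, at 63.0, 51.9 and 47.3, and Kdm7a lowest, at 0.906.

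Paralogs that share a reaction were expressed at unequal levels in most pairs. Per kb, Ezh2 exceeded Ezh1 by a median of 5.50 times (5.13 to 6.34 over the 9 libraries), Ehmt2 exceeded Ehmt1 by 6.04 times, Kdm5b exceeded Kdm5a by 10.6 times and Kdm1a exceeded Kdm1b by 14.9 times (12.8 to 16.3). Nsd1 stood 9.49 times above Nsd2 and Kmt5c 10.5 times above Kmt5b. Each of these ratios was above 1 in 9 of 9 libraries, treated or not. Smaller ratios above 1 in 9 of 9 libraries were those of Setd1a to Setd1b at 4.08, Kdm2b to Kdm2a at 4.14, Kmt2b to Kmt2a at 3.77 and Kdm3a to Kdm3b at 2.104. In contrast, Suv39h2 and Suv39h1 were close, with a ratio of 0.764 to 1.19, and so were Kmt2c and Kmt2d, with a ratio of 0.832 to 1.03. Exon lengths came from an annotation that is not stated to be the authors' own, so ratios depend on its gene models.

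CHIR against the control asked what inhibition of both GSK3 kinases did to these transcripts within 30 min in cells labelled as lacking β-catenin. Prmt5, which symmetrically dimethylates arginines of histones and of splicing factors, rose, and no other member passed the test. Prmt5 (chr14:54507182-54517470, mm10 coordinates) had 218, 205 and 221 CPM in the control and 239, 244 and 251 CPM with CHIR, or 215 ± 8.66 against 245 ± 5.95 CPM (SD, n = 3). The 3 CHIR libraries all lay above the 3 control libraries. The log2 fold change was 0.19 ± 0.05 (SE), with a 95% interval from 0.08 to 0.29 and an adjusted p of 0.0328 in edgeR. With BRD0705, Prmt5 had 220.1, 209.6 and 213 CPM, inside the range of the control, and the log2 fold change was -0.0047 (edgeR adjusted p 0.978).

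This 1 member of 46 compares with 6.3% of all tested genes that passed in the same comparison, 2.52% higher and 3.78% lower. Before adjustment, 4 members had a p under 0.05, against 20.5% of tested genes, and 7 members had groups that did not overlap, against 25.1%. The 7 were Kmt2a, Setd7, Setdb1 and Prmt5, higher with CHIR, and Kdm1a, Kdm2b and Kdm3a, lower. Member log2 fold changes ran from -0.13 to 0.20 with a median of 0.0023, beside -0.0091 over all tested genes. All 46 members had a 95% interval within 0.5 of 0 on the log2 scale, as did 66.8% of tested genes. Members also varied less between libraries of 1 group, with a median SD of 0.0746 (log2) against 0.119. The median member stood at the 75.8th percentile of level, with an exon length of 10663.5 bases against 5865 for tested genes. Neither the SD nor the shares of intervals, here and below, were matched for level or length.

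Against the control, Prmt5 with CHIR kept its call in 6 of the 9 refits that leave out a library. Over the 9, its log2 fold change ran from 0.165 to 0.217. The call was lost without control 2 (edgeR adjusted p 0.117), CHIR 2 (0.0904) or CHIR 3 (0.08996). Calls over all tested genes also fell in these refits, from 968 to 523, 514 and 716. An effect of fewer libraries is thus not separated from dependence on a given library. The call was also lost with the fibroblast marker score as a covariate, at a log2 fold change of 0.18 (edgeR adjusted p 0.210). It was kept with the replicate block, DESeq2, RLE scaling, no low-count filter, only the compared groups and both GC and length corrections.

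PRMT5 works in a complex with WDR77 (MEP50), its obligate partner, and with the adaptors CLNS1A and RIOK1, which compete for the same site on PRMT5 and direct it to different substrates. Wdr77 had 208, 218 and 219 CPM in the control, 203, 205 and 231 CPM with BRD0705 and 251, 248 and 239 CPM with CHIR. As for Prmt5, all 3 CHIR libraries lay above the other 6. Wdr77 rose with CHIR by a log2 fold change of 0.20 ± 0.06 (SE; edgeR adjusted p 0.0464), and it was lower with BRD0705 than with CHIR, at -0.21 ± 0.06 (edgeR adjusted p 0.0314). The adaptors did not follow this order. Clns1a had 156, 151 and 151 CPM in the control, 132, 132 and 137 CPM with BRD0705 and 141, 149 and 149.95 CPM with CHIR. Riok1 had 33.5, 30.0 and 32.5 CPM in the control, 26.7, 28.6 and 28.0 CPM with BRD0705 and 31.0, 31.2 and 32.5 CPM with CHIR. For both adaptors the BRD0705 libraries lay below all other libraries, with log2 fold changes against the control of -0.19 and -0.20 that did not pass (edgeR adjusted p 0.0678 and 0.133).

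Against the control, Wdr77 kept its call in 3 of the 9 refits that leave out 1 library. It was lost without control 1, 2 or 3 (edgeR adjusted p 0.122, 0.0808 and 0.0850) and without CHIR 1, 2 or 3 (0.110, 0.132 and 0.0546). With the fibroblast marker score as a covariate its edgeR adjusted p was 0.246. Against CHIR, the lower level with BRD0705 was lost without BRD0705 1 or 2 (edgeR adjusted p 0.134 and 0.119), without CHIR 1 or 2 (0.101 and 0.0994), after the correction for GC content and length (0.0569) and with the marker score (0.0530). In the annotation used here, 26.9% of the Wdr77 exon length is shared with the non-coding gene Gm42890 on the same strand, which had 2317 counts over all libraries against 39327 for Wdr77, and 9.25% lies opposite exons of Atp5pb. How the counting treated such reads is not given in the sources used here.

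**Figure D2:**
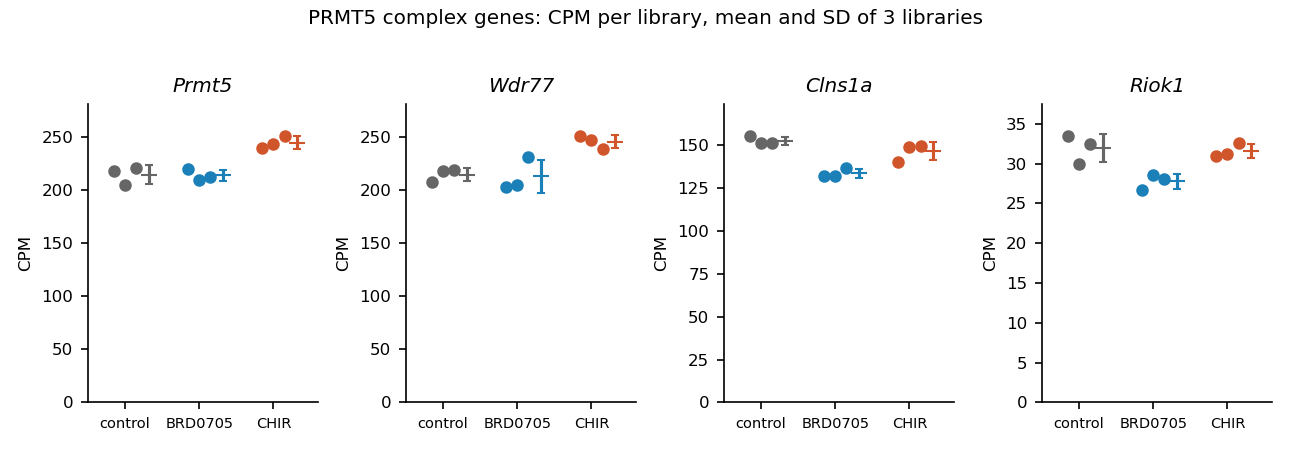
CPM of Prmt5, Wdr77, Clns1a and Riok1 in each library (points) with the mean and SD of 3 libraries (dash and bar), by treatment. For Prmt5 and Wdr77 the 3 CHIR libraries lie above the other 6, and for Clns1a and Riok1 the 3 BRD0705 libraries lie below the other 6.

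The promoters of Prmt5 and Wdr77 are shown because these complex partners rose together with CHIR. Each line gives the 250 bases before the RefSeq start on the strand of the gene, 5′ to 3′, from GRCm38.p6. The Prmt5 window is at chr14:54517471-54517720 on the minus strand and the Wdr77 window at chr3:105959248-105959497 on the plus strand. Capitals mark matches, on either strand, to the CCAAT box (CCAAT), the GC box (GGGCGG) and the core TGACG of the cAMP response element.
Prmt5: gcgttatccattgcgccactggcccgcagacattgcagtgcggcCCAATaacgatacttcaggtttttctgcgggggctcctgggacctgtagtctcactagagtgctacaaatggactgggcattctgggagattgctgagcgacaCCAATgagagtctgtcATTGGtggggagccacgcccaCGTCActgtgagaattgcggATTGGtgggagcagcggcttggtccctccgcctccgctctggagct
Wdr77: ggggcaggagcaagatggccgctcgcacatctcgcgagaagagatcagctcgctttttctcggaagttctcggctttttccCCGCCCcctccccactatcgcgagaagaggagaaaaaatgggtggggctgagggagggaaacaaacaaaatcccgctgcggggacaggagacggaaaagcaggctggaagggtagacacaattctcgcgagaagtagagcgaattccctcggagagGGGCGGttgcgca

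Prmt5 held 4 CCAAT boxes and 1 TGACG core, and Wdr77 held 2 GC boxes, so the windows share no searched motif. Both had a GC content of 58.0%, with 13 CpG dinucleotides in Prmt5 and 19 in Wdr77. Neither held the E-box CACGTG, the full element TGACGTCA (which contains the TGACG core), the ETS motif CCGGAAG or the TCF/LEF motif CTTTGAT, which is bound by the factors that recruit β-catenin. Of 32851 RefSeq promoter windows of this length, 33.9% held a CCAAT box, 32.7% a GC box, 17.8% the TGACG core, 6.02% the E-box, 1.55% the full element, 6.91% the ETS motif and 3.21% the TCF/LEF motif. Among the 31 members with a window, 21 held a GC box, 12 a CCAAT box, 11 the TGACG core, 4 the ETS motif and 3 the E-box. The full element was held by 1 member, and the TCF/LEF motif by 1, Kmt2d. Members were counted once per gene, whereas the shares above are of windows, so the measures are unlike.

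BRD0705 against the control asked the same of a GSK3α-selective inhibitor. Both inhibitors were set against the same 3 control libraries, so the comparisons are not independent. No member passed in edgeR, beside 1.22% of all tested genes (0.69% higher and 0.534% lower), whereas DESeq2 called 2 members, Kmt2a and Kdm6b, both higher, beside 6.42% of the genes to which DESeq2 gave an adjusted p. At an unadjusted p under 0.05 there were 6 members, against 15.9% of tested genes, and 10 had groups that did not overlap, against 20.2%. Kmt2a, Setd1b, Ezh1, Dot1l and Kdm6b were the 5 higher with BRD0705, and Setd7, Kdm1a, Kdm1b, Kdm3a and Kdm4c the 5 lower. Member log2 fold changes ran from -0.18 to 0.25, with a median of 0.017 beside -0.0038 over all tested genes. All 46 members had an interval within 0.5 of 0, as did 70.6% of tested genes.

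Kmt2a (chr9:44803355-44881352) encodes MLL1, a H3K4 methyltransferase known for its role at Hox genes. It had 86.3, 94.1 and 98.0 CPM in the control, 115, 117 and 99.9 CPM with BRD0705 and 108, 104 and 109 CPM with CHIR. All 6 treated libraries lay above the 3 control libraries. The log2 fold change was 0.25 ± 0.07 (SE) for BRD0705 and 0.20 ± 0.07 for CHIR, and neither passed (edgeR adjusted p 0.0635 and 0.0733). The treatments differed from each other by 0.05 on the log2 scale, with an interval from -0.09 to 0.18. Without BRD0705 3, the lowest of the treated libraries, both comparisons passed (edgeR adjusted p 0.0176 and 0.0314), and DESeq2 passed both as well (0.0110 and 0.0420). Neither passed after the GC and length correction (0.19 and 0.18 on the log2 scale, edgeR adjusted p 0.175 and 0.0933) or with the fibroblast marker score as a covariate (0.475 and 0.147).

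Setd1b (chr5:123142040-123168630), the catalytic subunit of a SET1 complex, had 77.2, 71.2 and 73.3 CPM in the control, 95.6, 78.6 and 81.9 CPM with BRD0705 and 74.8, 78.3 and 84.5 CPM with CHIR. Dot1l (chr10:80755101-80795461), the H3K79 methyltransferase, had 171, 164 and 171 CPM in the control, 194, 194 and 177 CPM with BRD0705 and 172, 167 and 185 CPM with CHIR. In both genes the BRD0705 libraries were above the control and overlapped those with CHIR. Log2 fold changes for BRD0705 against the control were 0.21 ± 0.07 for Setd1b and 0.16 ± 0.06 for Dot1l (SE; edgeR adjusted p 0.157 and 0.172). After the GC and length correction they were 0.098 and 0.046, and without BRD0705 1 that of Setd1b was 0.12.

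Kdm3a (chr6:71588970-71632990), a demethylase of H3K9, had lower values in both treatments. Its libraries held 268, 267 and 277 CPM in the control, 242, 251 and 254 CPM with BRD0705 and 248, 244 and 249 CPM with CHIR. All 6 treated libraries lay below the control. The log2 fold changes were -0.13 ± 0.05 for CHIR and -0.12 ± 0.05 for BRD0705 (SE), and neither passed (edgeR adjusted p 0.108 and 0.223). For CHIR it passed after the correction for GC content and length, at -0.15 (edgeR adjusted p 0.0444), and over all its alternatives the adjusted p reached 0.412.

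**Figure D3:**
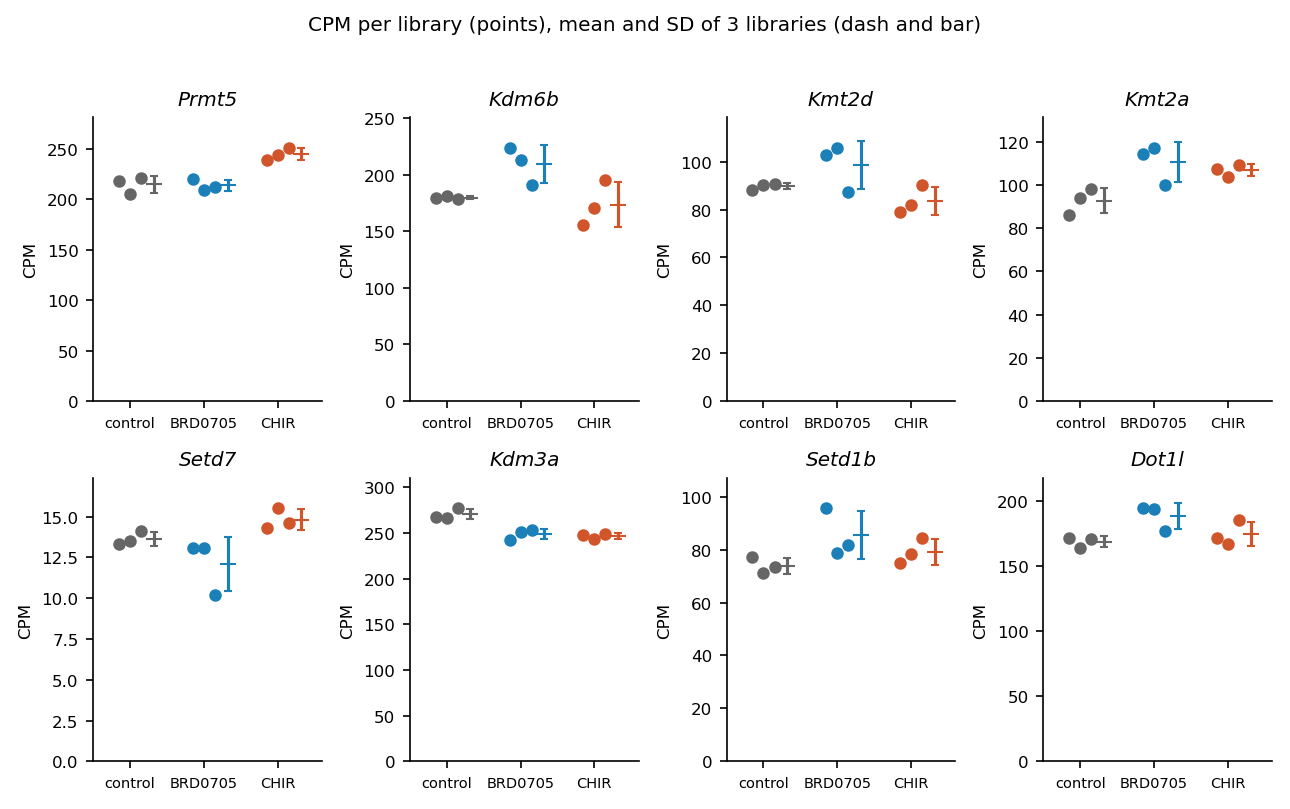
CPM of the 8 members with the lowest adjusted p over the comparisons, per library (points), with the mean and SD of 3 libraries (dash and bar). CHIR libraries of Prmt5 lie above the rest, from 239 to 251 CPM, and the third BRD0705 library stands apart from the first and second in Kdm6b, Kmt2d, Kmt2a and Setd7.

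BRD0705 against CHIR compared the inhibitors directly at the shared time of 30 min, with both doses unstated. In this comparison 3 members passed, beside 7.77% of all tested genes (4.8% higher with BRD0705 and 2.97% lower). Kdm6b and Kmt2d were higher with BRD0705, and Prmt5 was lower. There were 5 members at an unadjusted p under 0.05, against 22.5% of tested genes. Non-overlapping groups were found in 5 members, against 26.7%, and Setd7, Ehmt2, Prmt1, Prmt5 and Kdm1a were all lower with BRD0705. The median log2 fold change was 0.0036 over the members and 0.0038 over all tested genes, and 45 of 46 intervals lay within 0.5 of 0, as did 66.1% of tested genes.

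Prmt5 was lower with BRD0705 by a log2 fold change of -0.19 ± 0.05 (SE; edgeR adjusted p 0.0262), and its 3 BRD0705 libraries lay below the 3 CHIR libraries. It no longer passed without BRD0705 2 or 3 (edgeR adjusted p 0.0907 and 0.0556) or without CHIR 2 or 3 (0.0789 and 0.0782). After the correction for GC content and length it was the 1 member that still passed, at -0.21 (edgeR adjusted p 0.0134).

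Kdm6b (chr11:69398508-69420367), which encodes the H3K27 demethylase JMJD3 and is known as a gene that responds quickly to signals, had 179.7, 181 and 178 CPM in the control, 224, 213 and 191 CPM with BRD0705 and 155, 171 and 195 CPM with CHIR. The control libraries were nearly equal, at 179.6 ± 1.21 CPM (SD, n = 3), while the treated groups spread widely, at 209 ± 16.6 and 174 ± 20.01 CPM. The highest CHIR library lay above the lowest BRD0705 library, so the treated groups overlap. The log2 fold change between the inhibitors was 0.27 ± 0.07 (SE; edgeR adjusted p 0.0278). Against the control it was 0.22 ± 0.07 for BRD0705 (edgeR adjusted p 0.134) and -0.05 ± 0.07 for CHIR (0.768). After the GC and length correction the value for BRD0705 was 0.11. The call between inhibitors was lost without BRD0705 1 or 2 (edgeR adjusted p 0.155 and 0.0945), without CHIR 1 or 2 (0.140 and 0.108), and after the correction for GC content and length (0.20 on the log2 scale, 0.109).

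Kmt2d (chr15:98831669-98874077), the MLL4 enzyme that methylates H3K4 at enhancers, had 88.3, 90.3 and 90.7 CPM in the control, 103, 106 and 87.3 CPM with BRD0705 and 79.1, 81.8 and 90.4 CPM with CHIR. Here too the treated groups overlap, because the third library of each lay near the control. The log2 fold change between inhibitors was 0.24 ± 0.07 (SE; edgeR adjusted p 0.0470). Only 2 of the 9 refits kept the call, which was lost without control 1, 2 or 3 (edgeR adjusted p 0.0535, 0.0653 and 0.0666), BRD0705 1 or 2 (0.194 and 0.203) or CHIR 1 or 2 (0.179 and 0.157). It was also lost with another scaling of the libraries (0.0524), with only the compared groups in the fit (0.0659) and after the GC and length correction (0.15 on the log2 scale, 0.218).

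Setd7 (chr3:51515318-51560823) had 3 groups that were all separated, at a low level. Its libraries held 13.3, 13.5 and 14.1 CPM in the control, 13.1, 13.1 and 10.2 CPM with BRD0705 and 14.3, 15.5 and 14.6 CPM with CHIR. The difference between the first BRD0705 library and the first control library was small, and the third BRD0705 library was the lowest of all. The log2 fold change between inhibitors was -0.29 ± 0.10 (SE), with an interval from -0.50 to -0.09, and did not pass (edgeR adjusted p 0.0796). Without BRD0705 3 it was -0.18 (edgeR adjusted p 0.279). Among the members' intervals, this one alone reached beyond 0.5. Kdm1a, the LSD1 demethylase, was the other member with 3 separated groups, at a high level and with the smallest spread within groups (0.0191 on the log2 scale). It had 219.9, 223 and 218 CPM in the control, 205, 209 and 209 CPM with BRD0705 and 210.3, 216 and 217 CPM with CHIR. The gaps were small, from 209.2 (BRD0705) to 210.3 CPM (CHIR) and from 216.8 (CHIR) to 218.1 CPM (control). All 6 treated libraries lay below the control, with log2 fold changes of -0.09 ± 0.05 for BRD0705 and -0.04 ± 0.05 for CHIR (SE), and neither passed (edgeR adjusted p 0.396 and 0.696). The share of all tested genes with 3 separated groups was not computed. Single pairs of groups did not overlap in 20.2% to 26.7% of tested genes, so separation is not particular to Setd7 and Kdm1a.

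**Figure D4:**
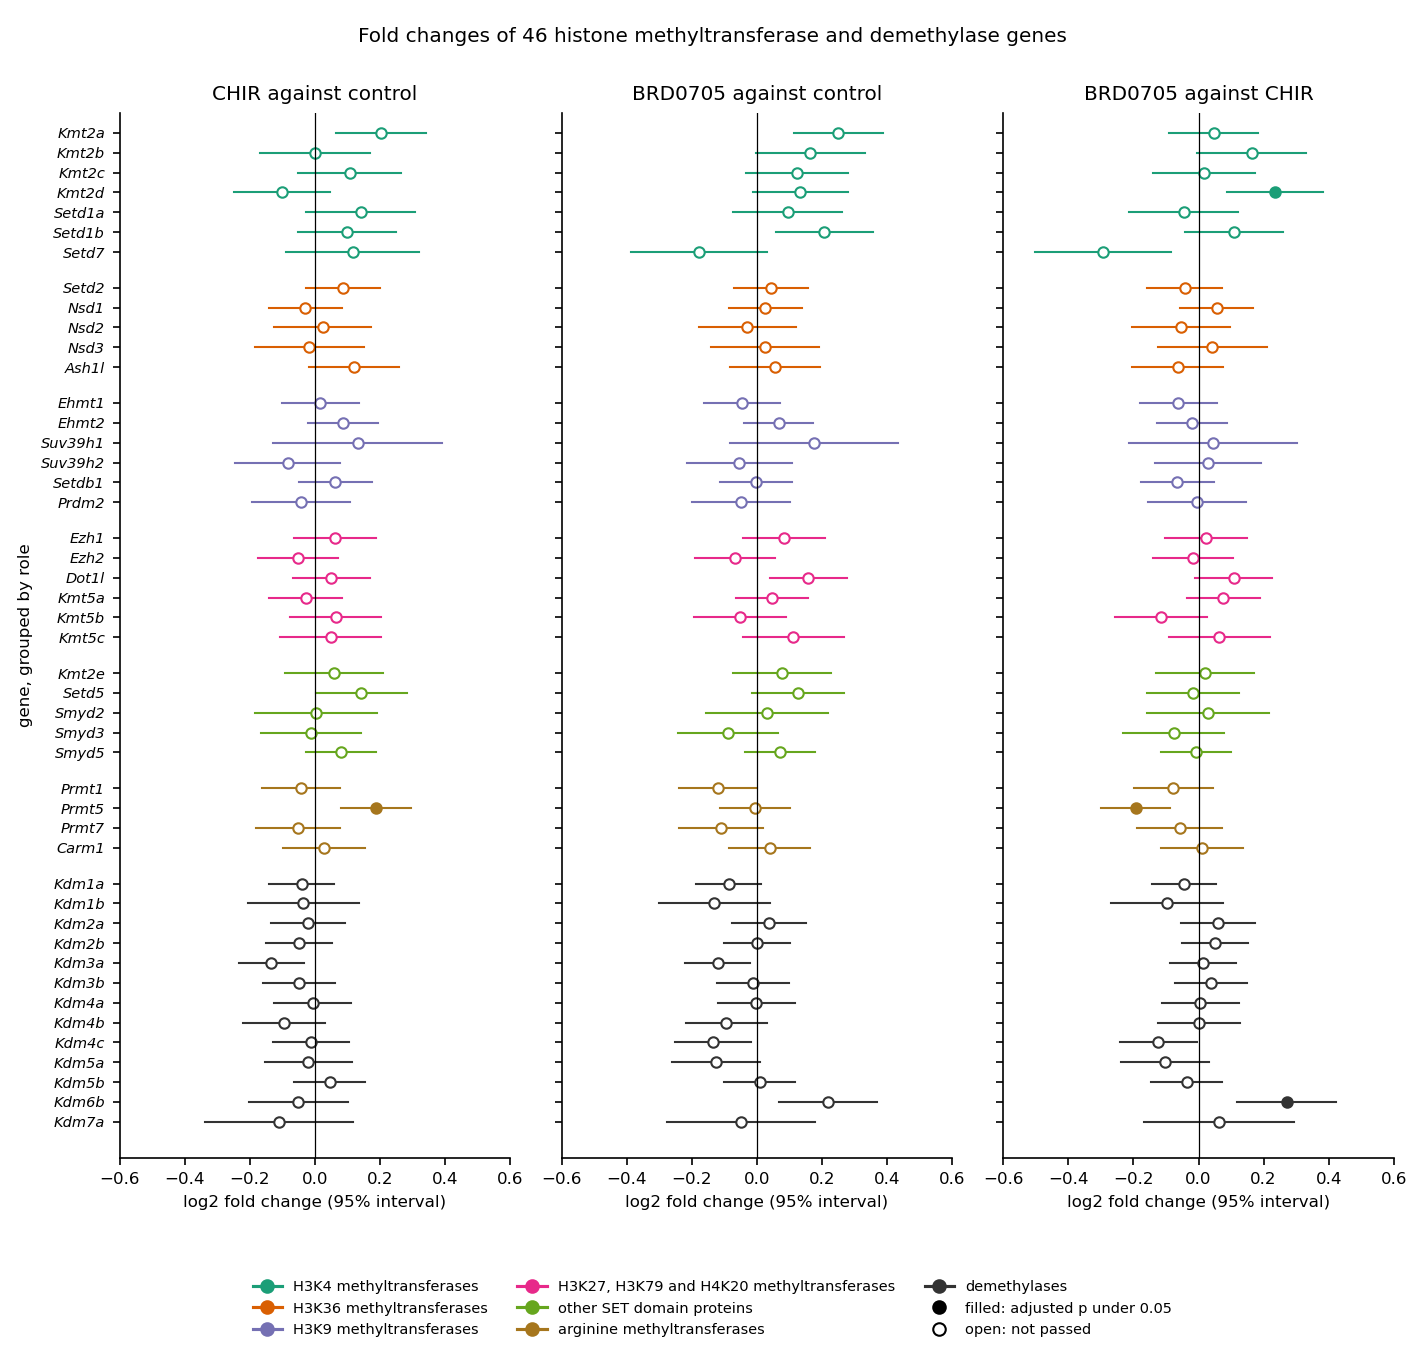
Log2 fold changes of all 46 genes in the 3 comparisons, with 95% intervals, grouped by role. Filled points, with an edgeR adjusted p under 0.05, are Prmt5 for CHIR against control and Kmt2d, Prmt5 and Kdm6b for BRD0705 against CHIR.

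By role, the H3K4 methyltransferases had the highest median log2 fold changes against the control, 0.11 with CHIR and 0.13 with BRD0705. In each case 6 of 7 were above 0, and Kmt2d with CHIR and Setd7 with BRD0705 were the exceptions. The 13 demethylases had medians of -0.041 with CHIR, where 12 of 13 were below 0 and Kdm5b was not, and -0.048 with BRD0705, where 9 of 13 were below 0. No H3K4 methyltransferase and no demethylase passed the test against the control in edgeR. Over all tested genes, 7313 were above 0 and 8053 below with CHIR, and 7534 above and 7832 below with BRD0705.

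Medians of the remaining groups with CHIR were 0.025 for the 5 H3K36 methyltransferases, 0.040 for the 6 H3K9 methyltransferases, 0.050 for the H3K27, H3K79 and H4K20 group, 0.058 for the other SET domain proteins and -0.0067 for the 4 arginine methyltransferases. With BRD0705, in the same order, they were 0.026, -0.023, 0.066, 0.073 and -0.057. No member of the H3K36, H3K9 or other SET domain groups passed in any of the 3 comparisons.

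The fold changes with BRD0705 moved with GC content. Across the 46 members the Spearman correlation of the log2 fold change against the control with exon GC content was 0.42, and across all tested genes it was 0.27. Genes share libraries and base composition and are not replicates, so these values are descriptions. Kdm6b, at 59.0% GC, and Kmt2d, at 58.3%, stand at the GC-rich end. Prmt5 has a GC content of 50.3% and Kmt2a of 50.6%, against a median of 47.5% for the members and 49.2% for tested genes. For CHIR the correlation across the members was 0.034. Once the trends over GC content and length were taken out of each library, the correlation across the members was 0.024 for BRD0705 and 0.17 for CHIR, and for BRD0705 against CHIR it went from 0.37 to -0.19. The H3K4 methyltransferase medians then were 0.067 with CHIR and 0.048 with BRD0705, and the demethylase medians -0.068 and -0.049. The whole scale moved as well. With CHIR the median over all 46 members went from 0.0023 to -0.025, and over all tested genes from -0.0091 to -0.021. With BRD0705 these medians went from 0.017 to -0.010 and from -0.0038 to -0.0093.

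**Figure D5:**
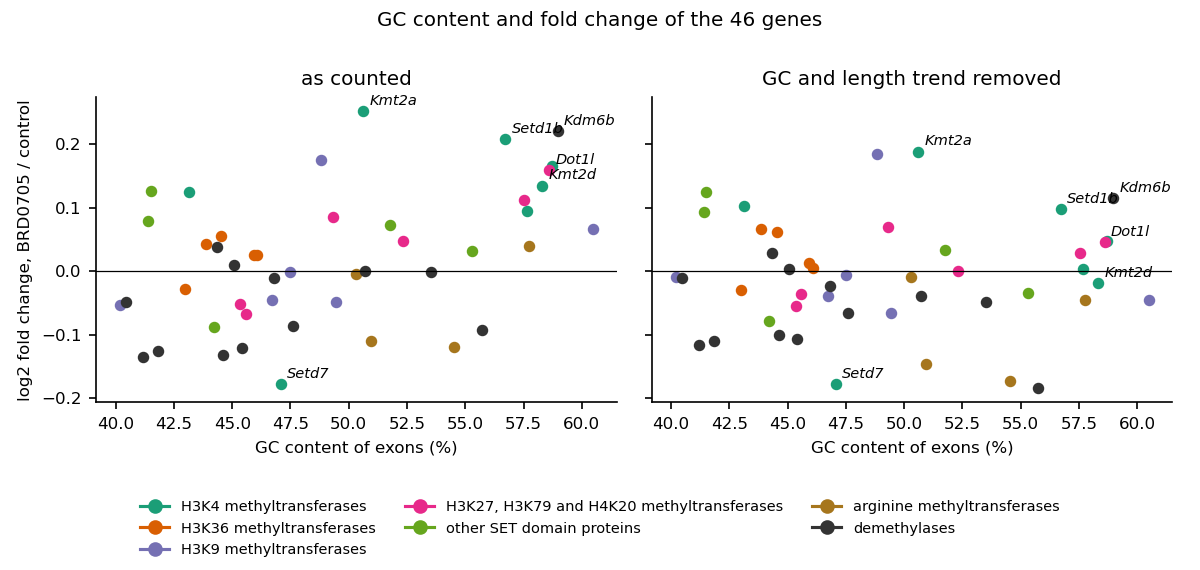
Log2 fold change for BRD0705 against control over exon GC content (%) of the 46 genes, coloured by role, before and after the GC and length correction. Kdm6b, Setd1b, Dot1l and Kmt2d lie at the GC-rich end and above 0 before the removal, and the Spearman correlation goes from 0.42 to 0.024.

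Genes that work with these enzymes were read from 6 lists. The list of 24 other writers and erasers had 22 tested genes, since Prdm8 and Kdm4d did not pass the low-count filter. With CHIR 2 of the 22 fell and 20 did not pass, while 3.78% of all tested genes were called lower. Smyd4, which encodes a SET and MYND domain protein, had 15.3, 15.5 and 16.1 CPM in the control, 14.5, 14.1 and 16.6 CPM with BRD0705 and 13.3, 11.0 and 10.6 CPM with CHIR. Prdm16, a PR domain protein known for brown fat and for haematopoietic stem cells, had 14.5, 14.1 and 14.5 CPM in the control, 15.7, 14.2 and 13.9 CPM with BRD0705 and 12.0, 11.0 and 12.0 CPM with CHIR. For both genes the CHIR libraries lay below the other 6. Against the control the log2 fold changes were -0.42 ± 0.10 for Smyd4 and -0.30 ± 0.09 for Prdm16 (SE; edgeR adjusted p 0.0154 and 0.0441). BRD0705 exceeded CHIR by 0.37 ± 0.10 for Smyd4 and 0.32 ± 0.09 for Prdm16 (edgeR adjusted p 0.0285 and 0.0295), and neither gene passed for BRD0705 against the control.

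Smyd4 with CHIR no longer passed without control 2 or 3 (edgeR adjusted p 0.0534 and 0.0687), CHIR 2 or 3 (0.0803 and 0.0734) or with the fibroblast marker score (0.0813). Against BRD0705 it was lost without BRD0705 1 or 3 (edgeR adjusted p 0.0611 and 0.111), CHIR 2 or 3 (0.111 and 0.105) or with the marker score (0.0565). Prdm16 with CHIR kept its call in 1 of the 9 refits, the one without BRD0705 3, and the other 8 gave edgeR adjusted p-values from 0.0513 to 0.176. DESeq2 gave 0.0993 for it. Prdm16 between the inhibitors was lost without BRD0705 1 or 2 (edgeR adjusted p 0.147 and 0.0593) or without CHIR 1, 2 or 3 (0.0603, 0.118 and 0.0549), in DESeq2 (0.0573) and after the GC and length correction (0.0539).

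Of the 12 partners of the MLL and SET1 complexes, none passed for either inhibitor against the control, and the median log2 fold changes were 0.075 with CHIR and 0.065 with BRD0705. At an unadjusted p under 0.05 there were 4 in each comparison, against 20.5% of tested genes with CHIR and 15.9% with BRD0705. The lowest adjusted p with CHIR was that of Paxip1 (0.18 on the log2 scale, edgeR adjusted p 0.0511), which passed after the GC and length correction (0.17, 0.0467). Between the inhibitors, Wdr5, the scaffold shared by these complexes, was lower with BRD0705. Wdr5 had 219.9, 221 and 225 CPM in the control, 208, 212 and 225 CPM with BRD0705 and 239, 237 and 253 CPM with CHIR. The CHIR libraries lay above the other 6, and the log2 fold change between inhibitors was -0.18 ± 0.05 (SE; edgeR adjusted p 0.0389). It passed only without control 1 and without BRD0705 3 among the 9 refits, and the other 7 gave edgeR adjusted p-values from 0.0509 to 0.141.

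PRC2 is the complex around Ezh1 and Ezh2. Of its 10 partners, 2 passed as lower with BRD0705 than with CHIR, beside 2.97% of all tested genes. None passed against the control. There, 2 with CHIR and 3 with BRD0705 had an unadjusted p under 0.05, beside 20.5% and 15.9% of tested genes. Mtf2, which brings PRC2 to CpG islands, had 178, 217 and 211 CPM in the control, 161, 183 and 174 CPM with BRD0705 and 209, 217 and 195 CPM with CHIR. Aebp2, a cofactor of another form of PRC2, had 52.4, 58.0 and 57.5 CPM in the control, 54.3, 52.7 and 52.7 CPM with BRD0705 and 68.9, 57.6 and 62.4 CPM with CHIR. The inhibitor groups did not overlap in either gene, and the first control library of Mtf2 lay among those with BRD0705. Log2 fold changes between inhibitors were -0.26 ± 0.07 for Mtf2 and -0.24 ± 0.07 for Aebp2 (SE; edgeR adjusted p 0.0300 and 0.0344). The catalytic subunits did not pass, with -0.017 for Ezh2 (interval from -0.14 to 0.11) and 0.023 for Ezh1 (-0.10 to 0.15; edgeR adjusted p 0.903 and 0.870).

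Mtf2 was lost without BRD0705 1 or 3 (edgeR adjusted p 0.139 and 0.0657), without CHIR 1 or 2 (0.0877 and 0.129), after the GC and length correction (-0.16 on the log2 scale, 0.0792) and with the marker score (0.0574). Aebp2 was lost without BRD0705 1, 2 or 3 (edgeR adjusted p 0.0753, 0.0960 and 0.0872), without CHIR 1 or 3 (0.171 and 0.0654) and with the marker score (0.0680). No gene passed in any comparison among the 9 partners of H3K9 methylation, such as the HP1 genes Cbx1, Cbx3 and Cbx5 and the corepressor Trim28, or among the 8 genes for methyl donor supply, such as Mat2a and Ahcy. At an unadjusted p under 0.05, edgeR gave 1 H3K9 partner with CHIR and 4 with BRD0705, and 2 methyl donor genes with CHIR and 1 with BRD0705, beside 20.5% and 15.9% of tested genes. Of the 9 partners of demethylases and arginine methyltransferases, Wdr77 alone passed.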

How the data were processed

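RNA of beta-catenin-/- mouse ESCs was sequenced in 9 libraries of 3 groups, with groups and replicate numbers taken from the titles in the labels. The authors deposited whole-number read counts per gene symbol in a table of 52264 rows, along with a normalized table that was not used. The submitters' processing notes name RSEM, DESeq2 and mm10, with no role, order or version. Not given in the sources used here are whether counts are rounded estimates, which annotation was used, and how strand was treated. Per the labels' protocols, total RNA went into a TruSeq kit with RiboZero, whereas the molecule label says polyA RNA, and the named extraction kits differ.

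Tests on the counts used edgeR 4.0.16 (R 4.3.3) with the quasi-likelihood F test, TMM scaling, filterByExpr with a minimum count of 10, and 1 fit of 3 group means over 9 libraries with 6 residual degrees of freedom. Tests were 2-sided, with Benjamini-Hochberg adjustment over 15366 genes and a threshold of 0.05. The SE is the absolute log2 fold change over the square root of F, and 95% intervals use the same degrees of freedom. CPM was computed on TMM-scaled libraries, with a prior count of 2 for log2 CPM. The scripts were tested on simulated data.

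The members, role groups, marker lists and pathway lists were chosen with earlier results of these data known. Pathway lists were other writers and erasers, MLL and SET1 complex partners, PRC2 partners, H3K9 methylation partners, demethylase and PRMT partners, and methyl donor supply. Marker lists were pluripotent stem cells, feeder fibroblasts, primitive endoderm, and primed epiblast with early germ layers, which summed to 84.8 to 106 CPM. Named with values in every library were members past the threshold in any comparison, filled to 8 by the lowest adjusted p, and pathway genes past the threshold. Kdm1a, Clns1a, Riok1, Paxip1, Ezh1 and Ezh2 were named after their values were seen.

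Positions and promoters came from RefSeq on GRCm38.p6, and exon length and GC content from GENCODE vM39 on GRCm39, which covered 98.0% of tested genes. The alternatives were a replicate block, DESeq2 1.42.0, its size factors in edgeR (RLE), no low-count filter, only the compared groups, a GC and length correction (splines with 5 degrees of freedom each) with and without the block, the fibroblast marker score (mean log2 CPM of 10 genes) as a covariate, and leaving out each library. For pathway genes the alternatives were chosen after seeing the data. Replicates of 1 group differed by more than counting noise, their chi-square divided by its degrees of freedom being 3.37 to 7.89.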

Additional observations from a re-analysis of the deposited data

How the results depend on the processing

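Among the members, 1 passed for CHIR against the control, 0 for BRD0705 against the control and 3 between the inhibitors. For CHIR there were 2 with DESeq2 (beside 7.15% of all genes with an adjusted p), 2 with no low-count filter (4.97%), 2 with only the compared groups (6.33%), 2 with the GC and length correction (7.53%), 1 when the replicate block was added to it (7.42%), and 0 with the fibroblast marker score as a covariate, where the members' median log2 fold change was 0.041 rather than 0.0023. With that covariate 238 of all tested genes passed for CHIR, against 968, and 0 for BRD0705, against 188. For BRD0705 against the control, 2 members passed with DESeq2 (6.42% of all genes with an adjusted p) and 3 with no low-count filter (2.28%). Between the inhibitors 1 passed with the GC and length correction (7.24%), and 1 when that correction was used with the replicate block (6.86%). Leaving out each library in turn gave 0 to 2 members for CHIR, beside 3.28% to 6.86% of all tested genes. For BRD0705 against the control the refits gave 0 to 1 members (0.135% to 1.96%), and between the inhibitors 0 to 2 (3.94% to 8.41%). The cause of these shifts was not tested.

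Log2 fold changes that changed sign were small, and none had passed. Kdm6b with CHIR was 0.049 with the marker score and -0.13 to 0.034 over the refits that leave out 1 library, Prmt5 with BRD0705 was 0.001 with DESeq2, 0.001 with RLE scaling and -0.028 to 0.024 over the refits, and Kmt2d with BRD0705 was -0.019 with the GC and length correction, with or without the block. Of 560 values for named genes under the alternatives, 443 kept their direction and side of the threshold, 95 lost the threshold, 11 gained it and 11 changed sign. Most of the 560 belong to results that had not passed in the main fit and so could not lose the threshold. The 95 losses all fall on the smaller part that had passed, so 443 of 560 does not measure how stable the calls were. In DESeq2, Setd7 had no adjusted p for BRD0705 against the control.

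Libraries share replicate numbers, but the labels do not say that a number marks a shared culture or day. Same-numbered libraries did not deviate together, with a mean correlation of -0.0012 over 9 pairs (-0.090 to 0.080). The mean over 18 other pairs was 0.00062. Deviations were taken from group means and sum to 0 within a group, so this second mean is tied to the first and is no separate comparison. With the replicate block, 1 member passed for CHIR (beside 6.33% of all tested genes), 0 for BRD0705 (1.44%) and 2 between the inhibitors (7.66%). In these fits Kmt2d between the inhibitors had an edgeR adjusted p of 0.0649, and Wdr77 with CHIR had 0.0517. Depth limits the lowest genes, such as Setd7 at 10.2 to 15.5 CPM, more than Prmt5.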
